A study of Mus musculus with 16 samples.

Results

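Brain endothelial cells form the wall of the capillaries and, joined by tight junctions and equipped with selective transporters, make up the blood-brain barrier. Pericytes sit on the outside of these capillaries within the same basement membrane, are recruited there by PDGF-B from the endothelium, and are needed for the barrier to form and to hold. The 10 genes described here are markers of both cell types, 7 of endothelial cells (Cldn5, Pecam1, Flt1, Slc2a1, Abcb1a, Mfsd2a and Tek) and 3 of pericytes (Pdgfrb, Rgs5 and Kcnj8). They were picked by name as known markers, with earlier results of these data already known, out of the 55404 genes of the deposited table. Each of the 10 symbols matched 1 gene, and all 10 passed the filter on low values.

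RNA of whole brain was sequenced from 8 Tecpr2 ki/ki and 8 wt/wt mice, each 5 months old. All were male, as a figure legend of the study has it. Both copies of the gene carry the L1152fs knock-in in Tecpr2 ki/ki mice, a frameshift made by CRISPR/Cas9 in zygotes on a C57BL/6J background, whereas the wt/wt mice have both copies unedited. The edit is in the germline, so the endothelial cells and pericytes of Tecpr2 ki/ki mice carry it as well as neurons and glia. No mouse had been treated, and each library came from 1 mouse.

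The values are normalized per gene and mouse and rounded to whole numbers. They summed to between 11964284 and 12252324 per mouse. The reads on genes came to an estimated 9.23 to 15.39 megareads per library, read off the gaps and repeats that scaling and rounding leave among low values. Tecpr2 itself had values of 274 to 320 in Tecpr2 ki/ki and of 928 to 1002 in wt/wt mice, so that every library had the level of its label. Genes of neurons, oligodendrocytes and astrocytes had the highest summed levels of the lists read in every library. Vascular cells are a small part of that tissue, and a bulk value cannot tell apart fewer cells of a type and less RNA per cell. Whether the brains had been perfused is not given in the sources used here.

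The 4 genes with the highest level per length were Rgs5, Slc2a1, Cldn5 and Flt1, and their promoters are shown here to set beside their measured levels the letters around their starts. The sequences are from RefSeq on GRCm38.p6, 300 bases each, from 250 bases before to 50 after the annotated start and on the strand of the gene. Rgs5 is at chr1:169655251-169655550 (plus strand), Slc2a1 at chr4:119108495-119108794 (plus strand), Cldn5 at chr16:18776597-18776896 (plus strand) and Flt1 at chr5:147725962-147726261 (minus strand). Capitals mark matches on either strand to CCGGAA or CAGGAA, which are core letters of sites for ETS factors, the transcription factors of endothelial genes, and to TATAAA, the TATA box.
Rgs5: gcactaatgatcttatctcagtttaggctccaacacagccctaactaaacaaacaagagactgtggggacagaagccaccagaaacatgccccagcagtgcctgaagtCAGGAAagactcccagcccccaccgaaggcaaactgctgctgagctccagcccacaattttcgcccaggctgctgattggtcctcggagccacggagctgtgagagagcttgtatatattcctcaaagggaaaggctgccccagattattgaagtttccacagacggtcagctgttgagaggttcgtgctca
Slc2a1: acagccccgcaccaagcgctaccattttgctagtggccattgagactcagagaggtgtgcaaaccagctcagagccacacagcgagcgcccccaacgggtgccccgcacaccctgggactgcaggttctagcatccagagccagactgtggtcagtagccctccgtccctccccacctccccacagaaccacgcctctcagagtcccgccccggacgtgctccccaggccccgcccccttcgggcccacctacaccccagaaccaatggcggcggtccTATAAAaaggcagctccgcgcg
Cldn5: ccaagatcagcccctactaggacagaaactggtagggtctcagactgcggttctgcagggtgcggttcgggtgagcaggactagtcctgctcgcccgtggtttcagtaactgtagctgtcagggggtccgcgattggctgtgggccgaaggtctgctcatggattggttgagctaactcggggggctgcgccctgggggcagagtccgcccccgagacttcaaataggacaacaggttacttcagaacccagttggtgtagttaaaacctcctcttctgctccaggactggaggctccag
Flt1: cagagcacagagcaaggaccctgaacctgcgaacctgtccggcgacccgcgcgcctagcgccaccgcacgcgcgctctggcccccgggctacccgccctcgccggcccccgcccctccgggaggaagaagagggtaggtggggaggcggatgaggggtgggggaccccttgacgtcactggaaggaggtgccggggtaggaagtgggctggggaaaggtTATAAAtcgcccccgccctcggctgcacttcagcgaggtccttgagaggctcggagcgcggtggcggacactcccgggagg

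In the promoter of Flt1, TATAAA began 31 bases before the start, and in that of Slc2a1 it began 28 bases past it. Rgs5 had CAGGAA 142 bases before its start, and the window of Cldn5 held none of the 3 motifs. RefSeq gave a promoter for 8 of the 10 genes. Of these 8 promoters, 2 held TATAAA, 3 held CAGGAA (those of Rgs5, Tek and Mfsd2a) and 0 held CCGGAA, against 13.6%, 30.6% and 14.9% of all 32851 promoters. The GC content of the 8 windows ran from 40.3% in Abcb1a, whose RefSeq start lies upstream of the gene as GENCODE places it, to 70.7% in Flt1. A match describes letters and is no sign of binding, and a window without one says nothing of the factor.

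No difference between Tecpr2 ki/ki and wt/wt mice passed the test for any of the 10 genes. Over all 23244 genes tested with limma, 31 had a Benjamini-Hochberg adjusted p under 0.1, which is 0.133% (0.0946% with a higher and 0.0387% with a lower level under the knock-in), and 0 of the 10 did. Of the 10, 3 had a higher and 7 a lower fitted level in Tecpr2 ki/ki mice. At an unadjusted p under 0.05 there were 6.08% of all genes and 0 of the 10, whose smallest unadjusted p was 0.263 (limma, Benjamini-Hochberg adjusted p = 0.917). When the 16 mice were split in all 12870 ways in an exact permutation test (two-sided), the smallest unadjusted p among the 10 was 0.288, and adjusted over all genes tested it was 0.924. With that test 0 of all genes had an adjusted p under 0.1, and 1424 had an unadjusted p under 0.05. The smallest p that the splits allow was 0.000155, and Tecpr2, at that p, had an adjusted p of 0.181 (exact permutation test). The adjusted threshold of 0.1 was thus out of reach for every gene in this test. The values of the genotypes overlapped for all 10 genes, while 0.086% of all genes tested did not overlap. The median log2 fold change was -0.01 over the 10 genes and -0.00098 over all genes tested. The 10 genes had a median absolute log2 fold change of 0.02, and that of the genes with mean values from 100 to 1500 was 0.03.

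**Figure D1:**
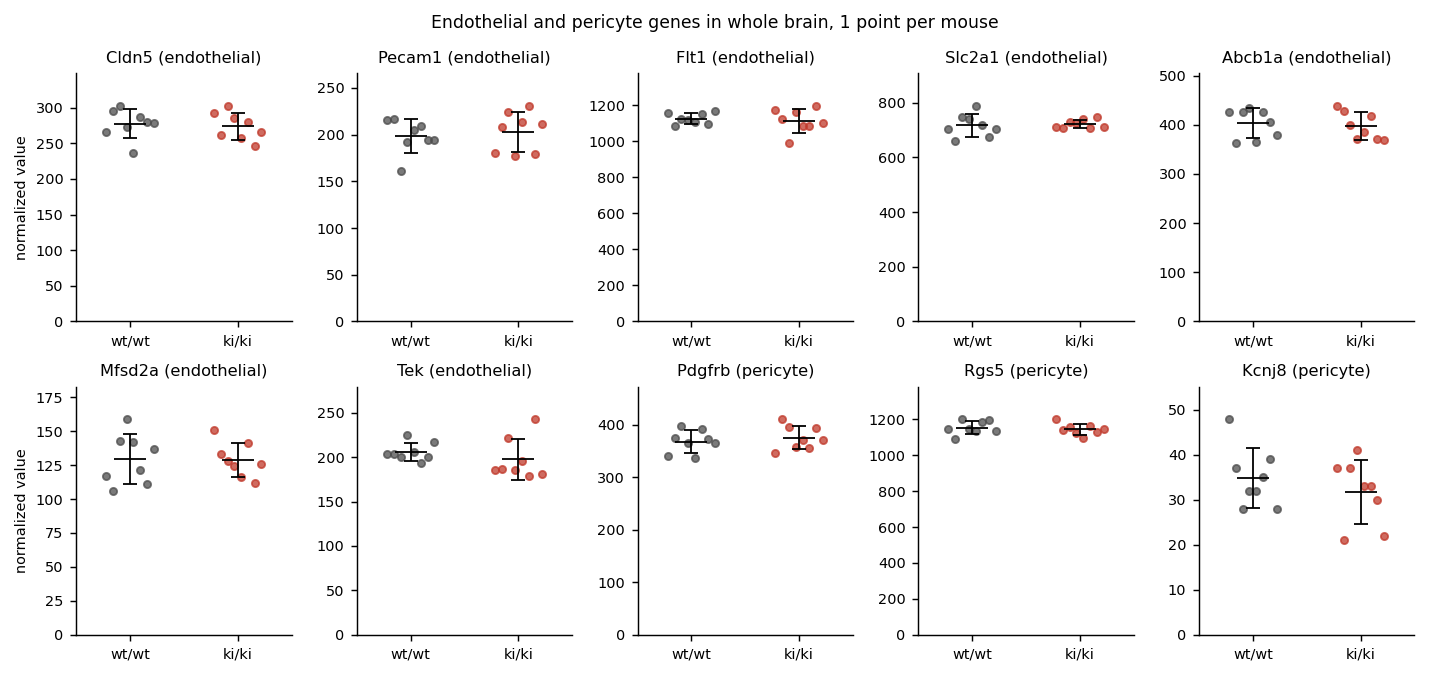
Normalized value (vertical axis, from 0) of each of the 10 genes in wt/wt (grey) and Tecpr2 ki/ki mice (red), with 1 point per mouse and with the mean and SD of 8 mice as bars. The points of both genotypes overlap in every panel, for example 1092 to 1203 in wt/wt and 1098 to 1202 in Tecpr2 ki/ki mice for Rgs5.

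Cldn5 (ENSMUSG00000041378, chromosome 16 of GRCm38 from 18776847 to 18778262) encodes claudin-5, the main claudin of endothelial tight junctions. Its lowest, median and highest values were 247, 273 and 302 in Tecpr2 ki/ki and 237, 279 and 303 in wt/wt mice. Mean values were 274 ± 18.9 (SD, n = 8) and 277.5 ± 20.3 (SD, n = 8), and the log2 fold change was -0.02 (standard error 0.0517). Its 95% confidence interval allowed changes from -8.08% to 6.05%. Among its junction partners, Cdh5, which encodes the VE-cadherin of adherens junctions, had means of 209.75 and 211.75 in Tecpr2 ki/ki and wt/wt mice. Ocln, which encodes the tight junction protein occludin, had means of 167 and 160.25, and Tjp1, which encodes the scaffold protein ZO-1, 1837 and 1846. Of the 11 junction genes listed, which also hold Esam (log2 fold change 0.12) and Jam2 (0.04), 0 had an unadjusted p under 0.05.

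Pecam1 (ENSMUSG00000020717, chromosome 11, 106654217 to 106750628) encodes the adhesion molecule CD31 of endothelial cells, which some blood cells also carry. It had values of 177, 209.5 and 231 (lowest, median and highest) in Tecpr2 ki/ki and of 161, 199.5 and 217 in wt/wt mice. For wt/wt mouse 3 the value of 161 lay apart from the other 7, which ran from 192 to 217. This gave a log2 fold change of 0.03 (95% interval -0.10 to 0.16), and without wt/wt mouse 3 it was -0.01. Neither value passed limma's test.

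Flt1 and Tek are receptors of the growth factors that shape vessels. Flt1 (ENSMUSG00000029648, chromosome 5, 147561604 to 147726011) encodes VEGF receptor 1, which binds VEGF tightly and limits how much of it reaches VEGF receptor 2. Its values were 988, 1112.5 and 1198 (lowest, median and highest) in Tecpr2 ki/ki and 1085, 1120.5 and 1169 in wt/wt mice. Tecpr2 ki/ki mouse 3 was the lowest of all 16, and the log2 fold change of -0.02 (95% interval -0.08 to 0.04) was 0.01 without it. Kdr, which encodes VEGF receptor 2, had means of 245.5 ± 28.2 (SD, n = 8) and 254 ± 21.0 (SD, n = 8). Vegfa, the main ligand of both receptors, had means of 692 ± 38.2 (SD, n = 8) and 731.5 ± 29.8 (SD, n = 8) in the same order, a log2 fold change of -0.08 with an unadjusted p of 0.0203 (limma, Benjamini-Hochberg adjusted p = 0.735). It was the only 1 of 8 VEGF ligands and receptors with an unadjusted p under 0.05. Nrp2, a co-receptor of VEGF, had the highest mean value of that list and a log2 fold change of 0.05.

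Tek (ENSMUSG00000006386, chromosome 4, 94739289 to 94874976) encodes TIE2, the receptor of the angiopoietins that keep vessels quiescent. It was listed at 179, 186.5 and 243 (lowest, median and highest) in Tecpr2 ki/ki and at 193, 203.5 and 225 in wt/wt mice. Of the Tecpr2 ki/ki mice, 6 lay under the wt/wt median, while mouse 7 was the highest of all 16 mice. Tek thus had a log2 fold change of -0.07 (95% interval -0.19 to 0.05). With mouse 7 left out it was -0.11, with an unadjusted p of 0.0641 (limma) and still no call. Tie1, the related receptor that modulates TIE2, had a log2 fold change of -0.14 and an unadjusted p of 0.0588 (limma, Benjamini-Hochberg adjusted p = 0.845). Angpt1, which activates TIE2, had a log2 fold change of 0.13 and Angpt2, which mostly opposes it, one of -0.05, and neither passed the test. Ptprb, a phosphatase of TIE2, had means of 828 and 831.

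Slc2a1, Abcb1a and Mfsd2a serve the transport across the barrier. Slc2a1 (ENSMUSG00000028645, chromosome 4, 119108711 to 119137983) encodes GLUT1, which brings glucose into the brain and is also made by astrocytes. Its values were 708, 718 and 748 (lowest, median and highest) in Tecpr2 ki/ki and 661, 710.5 and 789 in wt/wt mice. The wt/wt mice spread wider than the Tecpr2 ki/ki mice, which lay within their range. Slc2a1 had a log2 fold change of 0.01 (95% interval -0.05 to 0.08). The neuronal glucose transporter gene Slc2a3 had means of 1285 and 1271. An antisense gene, Gm12868, overlaps exons of Slc2a1, and another, Gm42686, those of Abcb1a, and whether the counting used the strand is not given in the sources used here. Of the 8 other glucose transporter genes listed, Slc2a13, a transporter of myo-inositol, had the smallest unadjusted p (0.00634, log2 fold change -0.07, limma with Benjamini-Hochberg adjusted p = 0.549).

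Abcb1a (ENSMUSG00000040584, chromosome 5, 8660077 to 8748575) encodes the P-glycoprotein that pumps drugs back into the blood. It was measured at 369, 392.5 and 439 (lowest, median and highest) in Tecpr2 ki/ki and at 362, 415.5 and 435 in wt/wt mice, and the genotypes overlapped over most of this range. Its log2 fold change was -0.02 (95% interval -0.11 to 0.07). Its value may be uncertain as that of a single gene. Of the 31-base words in its transcripts, 23.3% also occur in those of other genes, nearly all of them in the paralog Abcb1b. The reads were longer than these words, and how many of them could belong to either gene was not tested. Abcb1b had means of 67.4 ± 5.50 (SD, n = 8) and 60.25 ± 6.09 (SD, n = 8), a log2 fold change of 0.16 that did not pass the test (limma, Benjamini-Hochberg adjusted p = 0.877). Abcg2, the other main drug pump of brain capillaries, had means of 186.5 and 184.75.

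Mfsd2a (ENSMUSG00000028655, chromosome 4, 122946850 to 122961188) carries lysophospholipids with omega-3 fatty acids into the brain and keeps transcytosis through the endothelium low. Its values were 112, 127 and 151 (lowest, median and highest) in Tecpr2 ki/ki and 106, 129 and 159 in wt/wt mice. The means of 129 ± 12.7 (SD, n = 8) and 129.5 ± 18.5 (SD, n = 8) gave the smallest difference of the 10 genes, a log2 fold change of -0.0003 (95% interval -0.15 to 0.15). Among genes of fenestrae and of caveolae, the latter a mark of vesicle traffic through endothelium, Cav1 had a mean of 117 ± 10.1 (SD, n = 8) in Tecpr2 ki/ki mice, against 138.5 ± 6.63 (SD, n = 8) in wt/wt mice. Cav1 encodes caveolin-1, the coat protein of caveolae. Every Tecpr2 ki/ki value was at or under the lowest wt/wt value of 129, but the log2 fold change of -0.24 did not pass the test (limma, unadjusted p = 0.000968, Benjamini-Hochberg adjusted p = 0.271). Cav2 and Cavin1, which work with Cav1 in caveolae, had log2 fold changes of 0.06 and 0.04. Of the 5 genes of that list, 3 had a higher and 2, with Cav1 among them, a lower fitted level in Tecpr2 ki/ki mice.

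For the 3 pericyte genes, too, the values of both genotypes overlapped. Pdgfrb (ENSMUSG00000024620, chromosome 18, 61045150 to 61085061) encodes the receptor through which PDGF-B recruits pericytes. Its values were 347, 371 and 411 (lowest, median and highest) in Tecpr2 ki/ki and 336, 368.5 and 398 in wt/wt mice. Pdgfrb had a log2 fold change of 0.03 (95% interval -0.06 to 0.12). Its ligand gene Pdgfb had means of 221 ± 16.7 (SD, n = 8) and 213 ± 20.3 (SD, n = 8). Among the other PDGF genes, Pdgfa had a log2 fold change of -0.09 and Pdgfra, the receptor of oligodendrocyte precursors, one of 0.01.

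Rgs5 (ENSMUSG00000026678, chromosome 1, 169655501 to 169695813) dampens signals of G protein-coupled receptors in pericytes and smooth muscle. It had values of 1098, 1143.5 and 1202 (lowest, median and highest) in Tecpr2 ki/ki and of 1092, 1144 and 1203 in wt/wt mice. For Rgs5 the log2 fold change was -0.01 (standard error 0.0273), and its 95% interval of -4.48% to 3.01% was the narrowest of the 10. Kcnj8 (ENSMUSG00000030247, chromosome 6, 142564837 to 142571614) encodes Kir6.1, the pore of the KATP channel of pericytes, and had the lowest values. They were 21, 33 and 41 (lowest, median and highest) in Tecpr2 ki/ki and 28, 33.5 and 48 in wt/wt mice. Kcnj8 had a log2 fold change of -0.14, the largest of the 10 in size, but the 95% interval ran from -25.7% to 10.1%, so that a fall of that order could not be told apart from no change at this depth. Its partner in the channel, Abcc9, had means of 129 and 139, a log2 fold change of -0.11 that did not pass the test (limma, Benjamini-Hochberg adjusted p = 0.901). The subunits of the neuronal KATP channel, Kcnj11 and Abcc8, had log2 fold changes of -0.05 and 0.01.

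**Figure D2:**
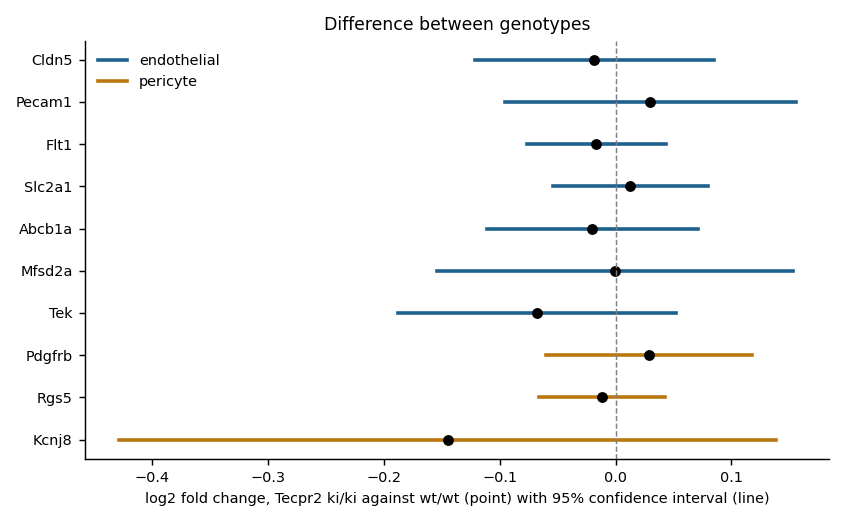
Log2 fold change of Tecpr2 ki/ki against wt/wt mice (horizontal axis, points) with its 95% confidence interval from limma (lines) for the 7 endothelial (blue) and 3 pericyte genes (ochre). All 10 intervals hold 0, and the widest is that of Kcnj8, from -0.43 to 0.14.

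For 6 of the 10 genes (Cldn5, Flt1, Slc2a1, Abcb1a, Pdgfrb and Rgs5) the whole interval lay within 10% of no change. For Pecam1, Mfsd2a and Tek it reached 11.4%, 11.2% and -12.2%. A p that misses the threshold does not show equal levels, and these bounds say how large a difference the data still allow. The ratio of the summed values of the 3 pericyte genes to those of the 7 endothelial genes ran from 0.502 to 0.531 in Tecpr2 ki/ki and from 0.491 to 0.544 in wt/wt mice, with medians of 0.509 and 0.505. The range of the Tecpr2 ki/ki mice lay inside that of the wt/wt mice. The summed values were not divided by length. Rgs5, with a mean of 1150 over all mice, therefore weighs most among the 3, and Flt1 (1120) and Slc2a1 (720) among the 7.

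Within a genotype the 10 genes varied by 1.03 to 1.53 times what counting alone would give. The coefficient of variation between mice of a genotype was 3.04% for Rgs5 and 20.6% for Kcnj8, and counting noise at the estimated depths came to 2.95% and 17.4%. The ratio of both was lowest for Rgs5 (1.03) and highest for Flt1 (1.53), followed by Abcb1a (1.45). For the 3317 genes tested with mean values from 500 to 1500 the median ratio was 1.241, and for the 2732 genes from 250 to 500 it was 1.17. The counting noise given here covers counting error only, whereas the 95% intervals of the fold changes rest on the spread between mice.

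**Figure D3:**
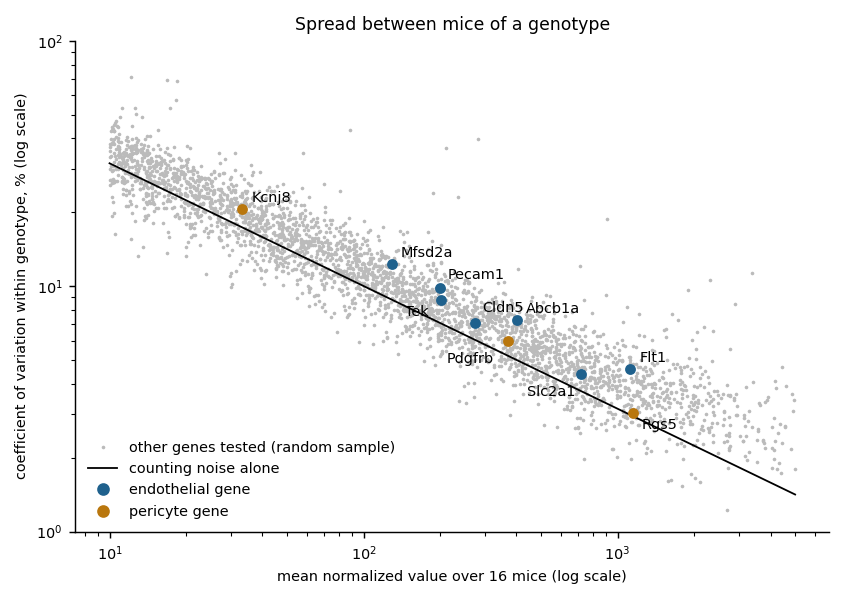
Coefficient of variation between mice of a genotype (vertical axis, log scale) against mean normalized value (horizontal axis, log scale) for the endothelial (blue) and pericyte genes (ochre) and for a random sample of the other genes tested (grey). The line is counting noise alone, and the 10 genes lie on it or above it among the grey points, with Rgs5 closest to the line.

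For the ranking given here, levels were divided by the exonic length of the gene in the GRCm38 annotation. The ratio above, the summed levels of lists and the most abundant genes of lists rest on values that were not divided. Per kilobase, Rgs5 had a level of 253 ± 7.52 (SD over 16 mice), Slc2a1 of 205 ± 8.72 and Cldn5 of 195 ± 13.4. Slc2a1 was above Cldn5 in 11 of 16 mice, and their ranges overlapped. The next level was that of Flt1, at 83.0 ± 3.70, below every value of Cldn5. Abcb1a (73.1 ± 5.15), Pdgfrb (67.8 ± 3.98) and Mfsd2a (57.4 ± 6.81) followed with overlapping ranges. Abcb1a was above Pdgfrb, and Pdgfrb above Mfsd2a, in 13 of 16 mice each, and Mfsd2a was above Tek in 15. Tek came to 42.8 ± 3.76 and Pecam1 to 32.2 ± 3.09, and the lowest level was that of Kcnj8, at 13.1 ± 2.68. Rgs5 was therefore 19.3-fold above Kcnj8 per length, although both are taken as pericyte genes. The exonic length joins the exons of all transcripts, so the level of a gene with many alternative exons, as Flt1 with 13504 bases, is understated.

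No 2 of the genes rose and fell together over the mice by a margin that passed adjustment for 45 pairs. Over the 45 pairs, after the genotype means of log2(value + 1) had been subtracted, the Pearson r ran from -0.57 to 0.67 with a median of -0.02, and 22 pairs were positive and 23 negative. After Benjamini-Hochberg adjustment over the 45 pairs, 0 had a p under 0.05 (permutation test with 100000 resamples within genotype), and 2 had an unadjusted p under 0.05. The closest pair was Abcb1a and Rgs5, with r = 0.67 (permutation p = 0.00789, adjusted p = 0.355) and rho = 0.66 (permutation p = 0.00853, adjusted p = 0.381). Without the 2 mice farthest from the median of Abcb1a, r was 0.55, and it was 0.67 within either genotype. Pecam1 and Flt1 had r = -0.57 (permutation p = 0.0242, adjusted p = 0.543) and rho = -0.63 (permutation p = 0.0169, adjusted p = 0.381), and r was -0.67 without the 2 mice farthest from the median of Pecam1. For this pair r was -0.84 in Tecpr2 ki/ki and -0.01 in wt/wt mice, a difference that was not tested. The 21 pairs of endothelial genes had a median r of -0.08. The 16 libraries differ in depth and, after normalization, still slightly in the totals of their values, which the pairs share. With all libraries scaled to equal totals, 0 of 45 pairs again passed after adjustment, and r was 0.56 for Abcb1a and Rgs5 (permutation p = 0.0321, adjusted p = 0.721) with rho = 0.48 (permutation p = 0.0705, adjusted p = 0.833). Pecam1 and Flt1 then had r = -0.49 (permutation p = 0.0627, adjusted p = 0.770) and rho = -0.61 (permutation p = 0.0217, adjusted p = 0.833), and the lowest r was -0.60, for Cldn5 and Slc2a1 (permutation p = 0.0209, adjusted p = 0.721). Its rho was -0.31 (permutation p = 0.261, adjusted p = 0.974), and r was -0.15 without the 2 mice farthest from the median of Cldn5.

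**Figure D4:**
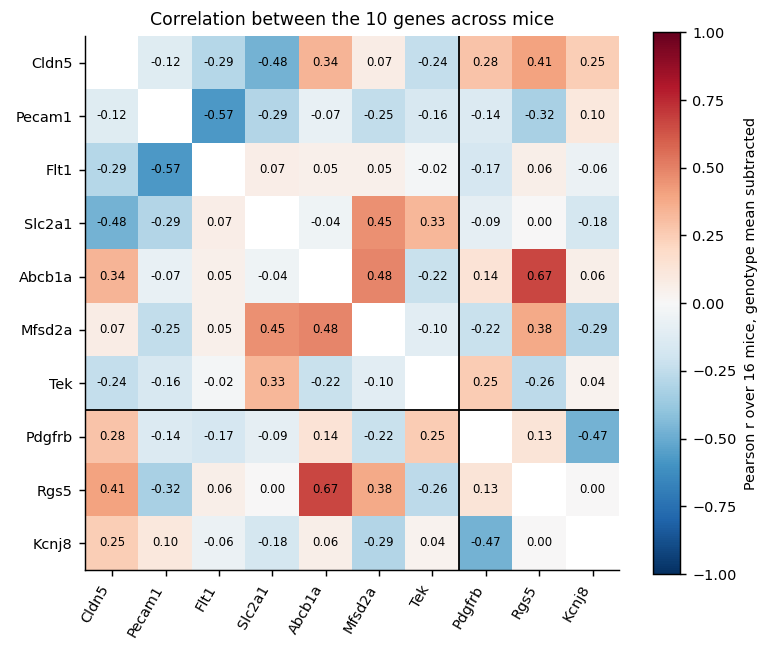
Pearson r between the 10 genes over 16 mice (colour and printed value, from -1 in blue to 1 in red), with the genotype mean of each gene subtracted and black lines between endothelial and pericyte genes. Positive and negative values are mixed in every block, and the extremes are 0.67 for Abcb1a and Rgs5 and -0.57 for Pecam1 and Flt1.

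As a description, the 5 genes with mean values of at least 100 whose pattern over the 16 mice was most like that of Cldn5, among 11241 genes, were Rgs8 (r = 0.87), Tmem35a (0.84), Gm6316, Gm6311 and Gm5454. For Rgs5 they were Crem (0.83), Maea, Tmem168, Ctdsp2 and Spire1. None of these is on the vascular lists. The median r of Cldn5 with 28 junction, identity and transporter genes was 0.22, and with all those genes 0.04. For Rgs5 the median r with 9 other pericyte and smooth muscle genes was 0.05, and with all those genes 0.03. The r of Rgs5 with the 9 genes ran from -0.31 to 0.64, the highest with Abcc9.

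The pathways around the 10 genes gave no call either. On 16 lists of vascular and partner genes, written with earlier results of these data known, 129 of 134 genes were tested and 0 passed limma's test at an adjusted p of 0.1. Among the 129, 62 had a higher and 67 a lower fitted level in the Tecpr2 ki/ki group, and 10 (7.75%) had an unadjusted p under 0.05, beside 6.08% of all genes. The median log2 fold change lay between -0.06 and 0.03 in the 14 lists with at least 4 genes. The lowest was that of 13 other pericyte genes, among them Notch3 (0.07), the Notch receptor of mural cells, and Vtn (-0.03), which encodes vitronectin. Of these 13 genes, 5 had a higher and 8 a lower fitted level, and 2 had an unadjusted p under 0.05 (limma), both higher.

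Among the 12 barrier transporters, 3 had an unadjusted p under 0.01. Slco1c1, which takes thyroxine into the brain, had a mean of 460 ± 14.3 (SD, n = 8) in Tecpr2 ki/ki mice, against 502 ± 25.5 (SD, n = 8) in wt/wt mice (log2 fold change -0.12, limma with Benjamini-Hochberg adjusted p = 0.399). Tfrc, the transferrin receptor gene, had a log2 fold change of -0.10, and Slc7a5, which carries large neutral amino acids, one of 0.10. Slc6a6, the taurine transporter gene and the most abundant of the list, had one of -0.03. Both directions were present, and none of these values passed the test. The share of genes with an unadjusted p under 0.01 was 1.56% over all genes tested.

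Among 18 endothelial identity genes, Ramp2, part of the adrenomedullin receptor, had a log2 fold change of 0.20, Podxl one of -0.09 and Cd34 one of -0.03, with 10 genes higher and 8 lower. Of 7 arterial genes, Gja4 had a log2 fold change of 0.20 at values of 15 to 35, and Efnb2 and Hey1 each one of -0.02. In the Wnt and Norrin pathway, which endothelial cells need to keep the barrier, 14 of 14 genes had an unadjusted p of at least 0.05. Its most abundant genes were Ctnnb1 (log2 fold change -0.02) and Lrp6 (0.0004), and Tspan12 had 0.07. Of the basement membrane genes, Fn1, Lamc1 and Nid1 had 0.02, -0.02 and -0.09. None of 8 vascular smooth muscle genes had an unadjusted p under 0.05, with Acta2 at 165 and 165, and Mylk and Myl9 at log2 fold changes of 0.0009 and -0.12. Cspg4, which pericytes share with oligodendrocyte precursors, had 0.09.

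Of 8 genes listed under endothelial activation, 4 were too low to be tested. Whether each of the 8 answers to activation in this tissue was not tested. Sele, Selp, Lcn2 and Ch25h had values of at most 7 in any mouse. Vcam1 and Ackr1 had values from 180 to 248 and from 282 to 362 and log2 fold changes of 0.08 and -0.02. Icam1 and Icam2 had values from 10 to 25 and from 7 to 32 and log2 fold changes of -0.21 and -0.04, and 0 of these 4 genes had an unadjusted p under 0.05. At this depth no rise of Sele or Selp was detectable, which is not the same as their absence.

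**Figure D5:**
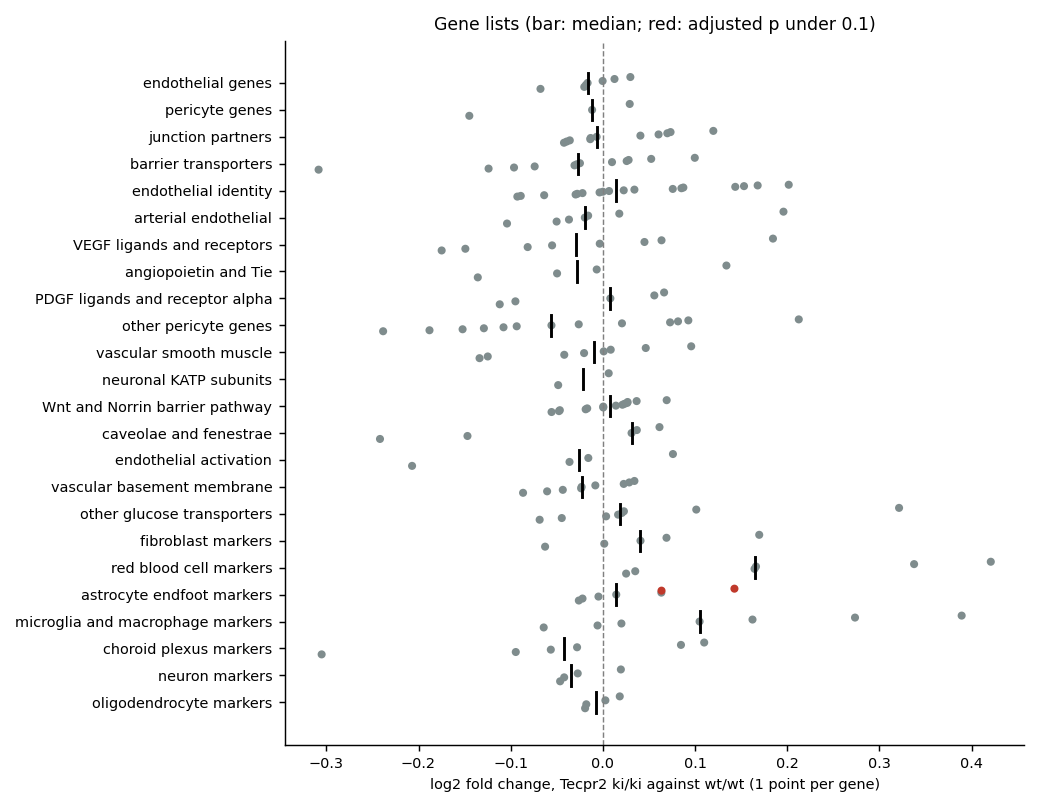
Log2 fold change of Tecpr2 ki/ki against wt/wt mice (horizontal axis, 1 point per gene) for the endothelial and pericyte genes and the other lists (vertical axis), with the median as a black bar and genes at a limma adjusted p under 0.1 in red. The bars of the 14 vascular and partner lists with at least 4 genes lie between -0.06 and 0.03, the single gene Abcb1b is not drawn, and the only red points are Aqp4 and Slc1a2 in the astrocyte endfoot list.

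Cells that touch or surround the vessels were read on their own lists. Of 7 genes listed for astrocyte endfeet, which wrap the capillaries, 4 had a higher and 3 a lower fitted level in Tecpr2 ki/ki mice. Their median log2 fold change was 0.01, and 2 of the 7 were called, both higher, beside 0.133% of all genes called. Only 1 of the 2 was called without the filter on low values, with quantile normalization or without the variance trend, and in the exact permutation test neither was (adjusted p = 0.181 for Aqp4 and 0.333 for Slc1a2). Aqp4 had the smallest p that this test allows (0.000155, exact permutation test), so that the test could not call it. Aqp4, the water channel gene of endfeet, had a median of 2264.5 in Tecpr2 ki/ki and of 2057.5 in wt/wt mice (log2 fold change 0.14, limma with Benjamini-Hochberg adjusted p = 3.75e-05), and Slc1a2, a glutamate transporter gene of astrocytes, rose by 0.06 (limma with Benjamini-Hochberg adjusted p = 0.00229). Gja1, which couples astrocytes, had a log2 fold change of -0.0048. Of 7 microglia and macrophage genes, 5 had a higher and 2 a lower fitted level in Tecpr2 ki/ki mice. P2ry12 had a log2 fold change of 0.16, Cx3cr1 of 0.10 and Csf1r of 0.02. Of the 7, 0 passed the test, although 3 had an unadjusted p under 0.05 (limma), beside 6.08% of all genes. Genes of red blood cells had a median log2 fold change of 0.17, above 0 in 6 of 6, with 0 of 6 at an unadjusted p under 0.05, and their summed level ran from 20.8 to 32.0 in Tecpr2 ki/ki and from 14.96 to 30.4 in wt/wt mice (each library scaled to a total of 1000000). The part of blood in the values of the vascular genes was not tested. Hba-a1 had 0.16, Hbb-bs 0.34 and Alas2 0.03. Of 5 fibroblast genes, 4 had a higher and 1 a lower fitted level, with Col1a1, Col1a2 and Col3a1 at 0.0015, 0.04 and 0.17. The 6 choroid plexus genes had a median of -0.04, with 2 higher and 4 lower, among them Ttr at -0.09 and Kl at -0.06. Of the 6, 2 had an unadjusted p under 0.05 (limma) and 0 passed the test. The 4 neuron genes (Snap25 at -0.05, Syt1 at -0.03) had a median of -0.03, with 1 higher and 3 lower. Of these 4, 1 had an unadjusted p under 0.05 (limma) and 0 passed the test. The oligodendrocyte genes Mbp and Mag had 0.0027 and -0.02. For the endothelial and pericyte genes themselves, the summed level ran from 246.8 to 258 and from 124 to 131 on the same scale in Tecpr2 ki/ki and from 243 to 257 and from 125 to 134 in wt/wt mice.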

How the data were processed

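The series holds 1 stranded total RNA library per mouse from whole brain, 8 mice per genotype, with ribosomal RNA removed by the kit. Per the labels and the study's methods, the authors trimmed reads with Trim Galore 0.6.10 and cutadapt 3.4 and aligned them to GRCm39 with STAR 2.7.10b. Reads per gene were counted by summarizeOverlaps. For regulated genes the study used the Wald test of DESeq2 1.40.2, which the submitters' processing notes also name. That test differs from the limma fit used here. What the authors deposited is a score per gene and mouse, a linear normalized value rounded to whole numbers, whose normalization is not given in the sources used here. The tables of single mice repeat the columns of the whole table (16 of 16).

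Because these values are not counts, limma 3.58.1 in R 4.3.3 was fitted to log2(value + 1) with genotype as the only term (eBayes with trend and robust), and Benjamini-Hochberg adjustment ran over all genes tested. The filter on low values kept a gene with a sum above 16 over all mice and with values above 5 in 4 or more mice of either genotype. Fold changes on this scale understate those of low genes. Exact two-sided permutation tests and correlations used Python 3.11.15 with numpy 2.4.6. The limma, depth and correlation steps were tested on simulated data. The depth of each library was estimated by maximum likelihood from low values, and the 95% intervals rest on the spread between mice.

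Symbols, positions and lengths are from GENCODE on GRCm38 (52017 of 55404 genes matched), an earlier build than the authors'. The 10 genes and the lists were chosen with earlier results of these data known. The genes named are Tecpr2, the 10 genes, their direct partners, the 2 most abundant genes and the gene with the smallest p of each list, every list gene at an adjusted p under 0.1, and the 5 genes most like Cldn5 and Rgs5. Notch3 and the other direct partners are part of that rule, while Slc7a5, Icam1, Icam2, Sele, Selp, Lcn2 and Ch25h were named after their values had been seen. The rule also gave 1 gene that is not reported here. Alternatives were other pseudocounts (0.5 and 5), no filter on low values, equal totals, quantile normalization, limma without trend or robust estimate, a replicate block, the exact test, and leaving out each mouse.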

Additional observations from a re-analysis of the deposited data

Results flagged for a closer look

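A sample was looked at again when its gap to the nearest other mouse, divided by the range of the 8 mice of its genotype, exceeded Dixon's critical value. Over the 156 groups of values of 78 genes, 11 samples did so (7.05% of groups), and chance alone gives about 5%. Among the 10 endothelial and pericyte genes there was 1, Pecam1 in wt/wt mouse 3, at 161 against 192 to 217 in the others. Without that mouse the log2 fold change of Pecam1 was -0.01 in place of 0.03.

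Among the genes of the vascular lists, Efnb2 was at 534 in Tecpr2 ki/ki mouse 4 against 595 to 646 in the other mice of its genotype. Gja4 was at 15 in Tecpr2 ki/ki mouse 7 (others 26 to 32) and Lamc1 at 506 in the same mouse (others 559 to 605). Ackr1 was at 362 in Tecpr2 ki/ki mouse 3 (others 282 to 316), Abcb1b at 55 in mouse 5 (others 64 to 72) and Angpt2 at 31 in mouse 8 (others 46 to 58).

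Outside the vascular lists, Col1a1 was at 323 in Tecpr2 ki/ki mouse 7 (others 147 to 194) and at 251 in wt/wt mouse 5 (others 157 to 194). Aqp4 was at 2195 in Tecpr2 ki/ki mouse 7 (others 2245 to 2287), above all wt/wt mice. Mbp was at 27931 in Tecpr2 ki/ki mouse 3 (others 24508 to 25954). Tecpr2 ki/ki mouse 7 gave 4 of the 11 values, and it also had the highest value of Tek.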

How the results depend on the processing

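Over 25 alternatives, 250 values of the 10 genes were computed. In 234 the direction was that reported and no gene was called, in 16 the direction was the other one, and 0 were past the threshold, with a smallest adjusted p of 0.866 (limma, Benjamini-Hochberg, for Tek without Tecpr2 ki/ki mouse 3). Dropping the filter, the trend or the robust estimate, the replicate block and the exact test leave the fold change as it was. In these the direction could not turn, so the 234 is in part fixed in advance. Scaling to equal totals turned Mfsd2a to 0.0036 and quantile normalization turned Rgs5 to 0.0006 on the log2 scale. Leaving out single mice gave log2 fold changes from -0.0503 to 0.0024 for Cldn5, from -0.0123 to 0.0568 for Pecam1, from -0.0318 to 0.0079 for Flt1, from -0.0039 to 0.0325 for Slc2a1, from -0.0420 to -0.0042 for Abcb1a, from -0.0394 to 0.0435 for Mfsd2a, from -0.1115 to -0.0488 for Tek, from 0.0101 to 0.0456 for Pdgfrb, from -0.0231 to -0.0031 for Rgs5 and from -0.2009 to -0.0676 for Kcnj8. The cause of these changes in sign was not tested. The count of all genes called was 31, and it was 20 without the filter on low values and 15 without the variance trend. With the exact test, whose smallest p could not pass the adjusted threshold here, it was 0. With single mice left out it lay between 25 and 40, the lowest without wt/wt mouse 5 and the highest without wt/wt mouse 2. The 2 list genes called became 1 without the filter, with quantile normalization and without the variance trend, and their count was 2 with any single mouse left out.

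Labels share replicate numbers between genotypes. Same-numbered mice had residual correlations of -0.04 to 0.15, and 3 of 8 Tecpr2 ki/ki mice correlated best with their own number. Whether the numbers pair the mice was not tested. With a replicate block 46 genes were called, 0 of the 10 among them, and the log2 fold changes of the 10 were those without it. Depth limits Kcnj8 most, for which 95% bounds from -25.7% to 10.1% remain.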
